A study of Homo sapiens with 6 samples.

Results

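The microRNA processing machinery was examined in 786-O cells with and without reduced METTL3. It was taken as 10 genes, chosen by gene symbol from the 61860 gene rows of the deposited tables, and each of the 10 had 1 row. They were DROSHA and DGCR8 (the Microprocessor), XPO5 (export), DICER1 with TARBP2 and PRKRA (Dicer and its partners), and AGO1, AGO2, AGO3 and AGO4 (the Argonautes). All 10 passed the filter on low counts, with 1359 to 17502 counts per gene and library.

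786-O is an established human kidney cancer line, of the clear cell type, with no functional VHL. The control group (3 libraries) stably expressed a control short hairpin RNA (shRNA), and the knockdown group (3 libraries) stably expressed an shRNA against METTL3, with no other agent named in the labels. RNA depleted of ribosomal RNA was sequenced, with 102420127 to 103624456 counts per control library and 100534896 to 101473388 per knockdown library. The sources used here do not say whether a group was 1 clone or a pool, or whether each library had its own culture. The tests therefore rest on the variation among these 6 libraries, part or all of which could be technical. The letters A, B and C are those of the deposited columns, and no label links them to a replicate number. Besides the letter, the knockdown columns carry only a number of unstated meaning, and their group was inferred by elimination.

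A microRNA begins as a hairpin within a longer primary transcript. In the nucleus the Microprocessor, formed by the ribonuclease DROSHA and the RNA-binding protein DGCR8, cuts the hairpin out. Exportin 5, the product of XPO5, carries it to the cytoplasm, where DICER1 trims it to a short duplex and an Argonaute takes up 1 strand as its guide. METTL3, the catalytic subunit of the m6A writer complex, is known to mark primary microRNAs, a mark reported to help DGCR8 recognise them. An shRNA is itself a hairpin that uses exportin 5, Dicer and Argonautes. Both groups carried one, and cells without a hairpin were not analysed here.

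The library protocol selected fragments far longer than a mature microRNA, so the values below are levels of the machinery's own transcripts. The Microprocessor can also cut hairpins within the DGCR8 transcript, and the GENCODE 29 annotation places 2 microRNA genes, MIR3618 and MIR1306, inside exons of DGCR8. Their mature products are printed from the RefSeq table (GRCh38.p14, plus strand), 5′ to 3′, with the seed (bases 2 to 8) in capitals, to show which parts of the DGCR8 transcript are also microRNA sequence.
hsa-miR-3618 (chr22:20085797-20085818): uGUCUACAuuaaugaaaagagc
hsa-miR-1306-5p (chr22:20086072-20086093): cCACCUCCccugcaaacgucca
hsa-miR-1306-3p (chr22:20086112-20086129): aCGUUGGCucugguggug
The 3 seeds differ from each other. The rows of MIR3618 and MIR1306 were listed at 0 in all 6 libraries, so reads over these hairpins, if any, were not counted under the microRNA genes.

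METTL3 itself checks the labels. Its level was 37.2, 38.1 and 37.6 CPM (counts scaled to library size, with TMM factors) in the control libraries and 11.3, 9.84 and 11.4 CPM in the knockdown libraries, here and below in the order A, B and C. The groups did not overlap, with a fall of 71.2% in METTL3 (−1.80 ± 0.08 on the log2 scale, fitted value ± SE, adjusted p = 1.45e-07 by edgeR). It shares 388 exonic bases with TOX4 on the opposite strand. Among markers of the cell type, PAX8 rose from 142 to 177 CPM (log2 fold change 0.32, edgeR adjusted p = 0.0116). PAX2 went the other way, from 44.1 to 38.5 CPM (log2 fold change −0.19, edgeR adjusted p = 0.0666). KRT8 stood at 180 and 182 CPM, whereas EPCAM had at most 66 counts and the epithelial cadherin CDH1 at most 11 counts in a library. Of the markers of other cells, the leukocyte gene CD3E was at 0, PTPRC had at most 4 counts, and the endothelial gene PECAM1 at most 1. CD68, which many cells hold in lysosomes, rose from 53.5 to 103.5 CPM, and PDGFRB fell from 2.15 to 0.93 CPM. VIM, which belongs to the list of the cell type itself, rose from 1461 to 2960 CPM. The summed level of that list, most of it from VIM, was 1842 to 2347 CPM in control and 2947 to 4046 CPM in knockdown libraries. The summed level of the leukocyte list, nearly all from CD68, was 49.0 to 58.3 CPM in control and 87.6 to 114 CPM in knockdown libraries, and that of the fibroblast list 3.59 to 4.11 and 2.02 to 2.23 CPM. Their part in the results below was not tested.

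Transcripts of the microRNA machinery differed little between the groups. XPO5 and AGO3 fell, by 18.2% and 16.3%, and DROSHA, DGCR8, DICER1, TARBP2, PRKRA, AGO1, AGO2 and AGO4 did not pass the test. Of the 10 genes, 0 rose and 2 fell (quasi-likelihood test of edgeR, p adjusted by Benjamini-Hochberg over 18740 genes, threshold 0.05). At an unadjusted p under 0.05, 1 was higher and 3 were lower, and DESeq2 and limma-voom each called 0 higher and 2 lower. The share of all genes at that unadjusted p was not worked out, here or for the gene lists below. Of the 18740 genes, DESeq2 called 3109 higher and 3197 lower, and limma-voom 3091 and 3152. With the adjusted p of edgeR, 33.5% of all genes tested were called, 16.5% higher and 16.9% lower. The 2 called genes are 20% of the 10, both lower. That share is under 33.5% for either direction and near 16.9% for lower, and 10 genes are too few to tell such shares apart. The median absolute log2 fold change was 0.08 for the 10 genes and 0.25 for all genes tested, and their median log2 fold changes were −0.0042 and −0.0030. The values for all genes tested were not restricted to the CPM range of the 10 genes. In bulk RNA, less RNA per cell and fewer cells that express a gene cannot be told apart. The number that fell was 1 when control B, control C, knockdown A or knockdown B was left out. It was 3 when libraries were scaled by size alone, where 35.8% of all genes were called (25.2% lower) and the median of all genes moved to −0.11. AGO1 was called higher without knockdown library A.

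**Figure D1:**
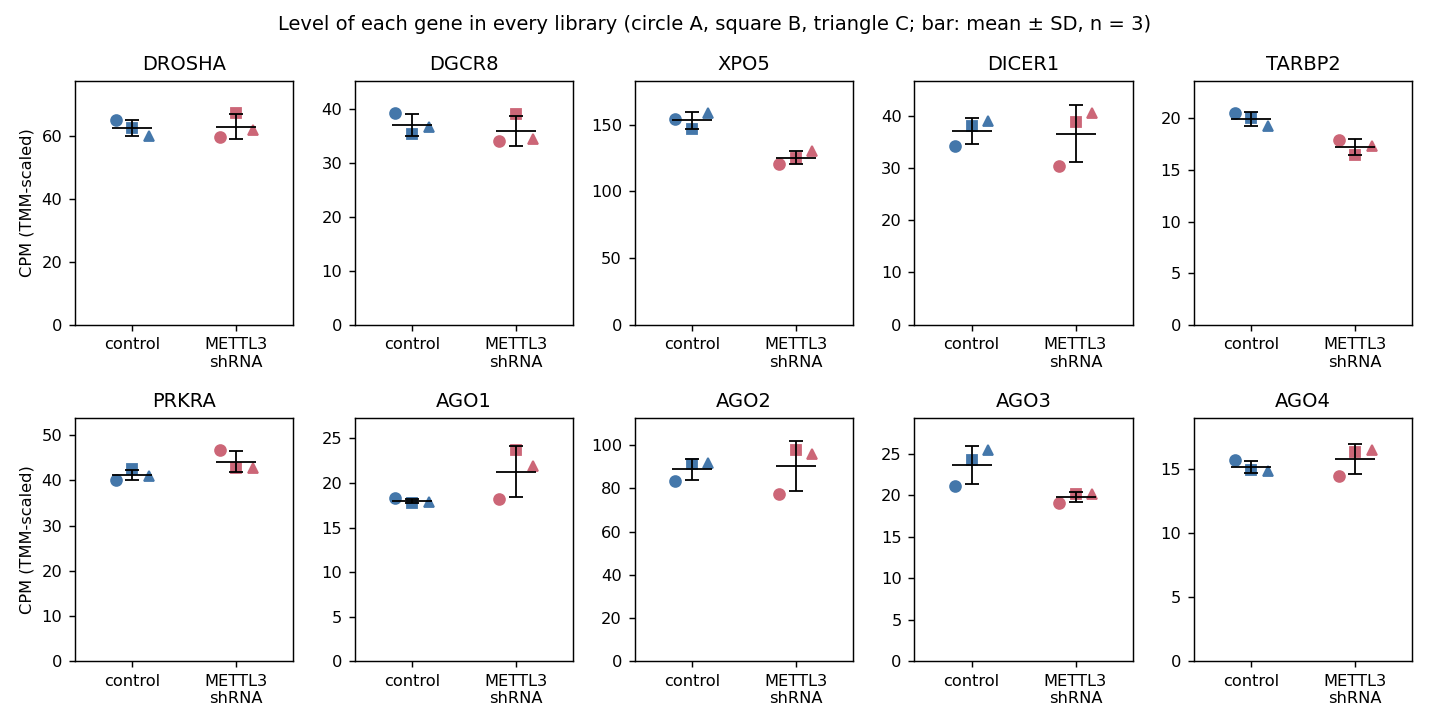
Level of each of the 10 genes (CPM scaled by TMM, axis from 0) in the 3 control libraries (blue) and the 3 METTL3 shRNA libraries (red), with circles, squares and triangles for libraries A, B and C and black bars for the mean ± SD. The groups are apart for XPO5, TARBP2 and AGO3, where knockdown is lower, and by a small margin for PRKRA, where it is higher.

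The CPM of the groups did not overlap for 4 of the 10 genes, lower in knockdown for XPO5, TARBP2 and AGO3 and higher for PRKRA. Over all genes tested this was so for 47.4%, 23.9% lower and 23.4% higher.

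The Microprocessor genes stood at nearly the same level in both groups. DROSHA, which cuts the primary hairpin, was at 65.1, 62.6 and 60.0 CPM in the control libraries and at 59.7, 67.4 and 61.8 CPM in the knockdown libraries. The knockdown values spread around those of the control group on both sides. Its log2 fold change was 0.0097 (SE 0.08, 95% interval −0.15 to 0.17, edgeR adjusted p = 0.933). DGCR8, the partner that anchors the hairpin, was at 39.4, 35.4 and 36.7 CPM in control and 34.2, 39.2 and 34.4 CPM in knockdown libraries. The groups again overlapped, with a log2 fold change of −0.048 (SE 0.08, interval −0.22 to 0.13, edgeR adjusted p = 0.681). Falls of the size of METTL3's lie outside both intervals, and changes within them were not detectable here.

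XPO5 had the smallest p of the 10 genes. The gene (ENSG00000124571) spans positions 43522330 to 43576075 of chromosome 6 (GRCh38, minus strand). Its level was 154, 147 and 159 CPM in the control libraries and 120.5, 125 and 130.4 CPM in the knockdown libraries. Each knockdown library lay below each control library. The group means were 153 ± 6.23 and 125 ± 4.94 CPM (SD, n = 3 each), which gave a log2 fold change of −0.29 (SE 0.07, interval −0.45 to −0.13, edgeR adjusted p = 0.00936). The call held without any single library (edgeR adjusted p from 0.00933 to 0.0388). XPO5 shares 348 exonic bases, 4.08% of its merged exons, with POLR1C on the opposite strand, and the sources used here do not say whether counting used strand. POLR1C, a subunit of RNA polymerases I and III, had 3166, 3186 and 3495 counts in control and 2547, 2439 and 2847 in knockdown libraries (log2 fold change −0.19, edgeR adjusted p = 0.0671). XPO5 had 15638 to 17502 counts in control and 11384 to 13067 in knockdown libraries. The part of this overlap in the XPO5 counts was not tested.

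**Figure D2:**
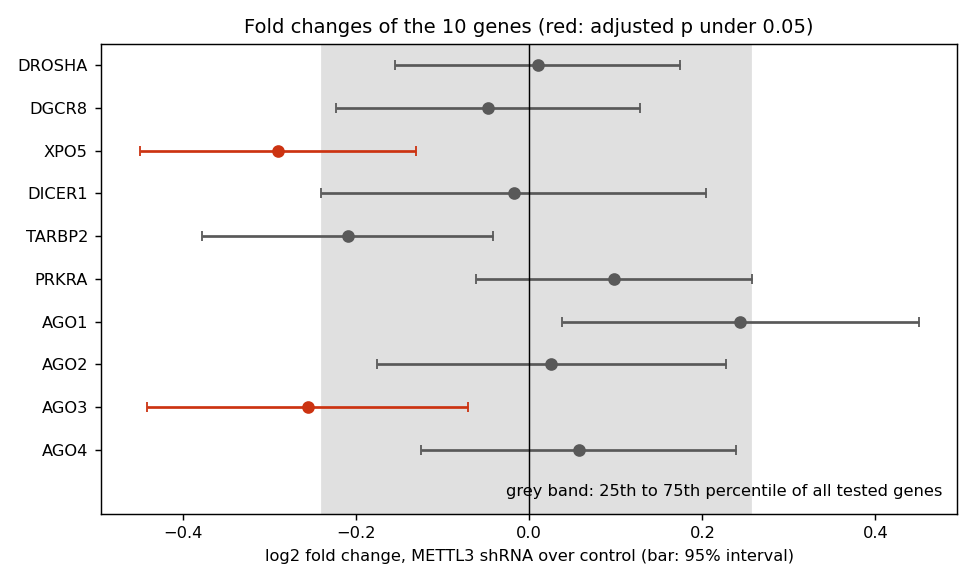
Log2 fold change (METTL3 shRNA over control, points) with 95% intervals (bars) of the 10 genes from the edgeR fit, with the 25th to 75th percentile of all tested genes as a grey band. XPO5 (−0.29) and AGO3 (−0.26), in red, passed the test, and the intervals of TARBP2 and AGO1 also leave out 0 without passing it.

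None of DICER1 and its double-stranded RNA-binding partners passed the test. DICER1, the ribonuclease that trims the exported hairpin, was at 34.2, 38.0 and 38.9 CPM in control and 30.3, 38.9 and 40.6 CPM in knockdown libraries. Knockdown library A was the lowest and knockdown library C the highest of the 6, and the log2 fold change was −0.018 (SE 0.10, interval −0.24 to 0.20, edgeR adjusted p = 0.909). Without knockdown library A it was 0.096. TARBP2, which binds Dicer and helps load Argonaute, was at 20.5, 20.01 and 19.2 CPM in control and 18.0, 16.4 and 17.3 CPM in knockdown libraries. All 3 knockdown values were below all 3 control values, with a log2 fold change of −0.21 (SE 0.08, interval −0.38 to −0.04, edgeR adjusted p = 0.0528, from 0.00830 to 0.179 over its 16 alternatives). PRKRA, the paralogous partner of Dicer and activator of the kinase PKR, was at 40.1, 42.5 and 41.0 CPM in control and 46.8, 42.7 and 42.8 CPM in knockdown libraries. Here the knockdown values were the higher ones, 2 of them by a small margin, with a log2 fold change of 0.10 (SE 0.07, interval −0.06 to 0.26, edgeR adjusted p = 0.332), and with library size scaling the value was −0.014.

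The regions upstream of XPO5 and TARBP2, which were both lower in every knockdown library, are printed from the RefSeq promoter table (GRCh38.p14), cut back to the bases outside the GENCODE gene. AGO3 was also lower in every knockdown library, but no bases of its window were left to print. Capitals mark matches, on either strand, to a CCAAT box (CCAAT) or a GC box (GGGCGG).
XPO5 (chr6:43576076-43576288, minus strand): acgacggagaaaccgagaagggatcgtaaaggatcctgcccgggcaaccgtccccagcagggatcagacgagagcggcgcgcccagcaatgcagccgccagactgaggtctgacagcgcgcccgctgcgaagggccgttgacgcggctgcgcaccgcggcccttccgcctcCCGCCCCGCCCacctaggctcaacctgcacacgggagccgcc
TARBP2 (chr12:53500673-53500920, plus strand): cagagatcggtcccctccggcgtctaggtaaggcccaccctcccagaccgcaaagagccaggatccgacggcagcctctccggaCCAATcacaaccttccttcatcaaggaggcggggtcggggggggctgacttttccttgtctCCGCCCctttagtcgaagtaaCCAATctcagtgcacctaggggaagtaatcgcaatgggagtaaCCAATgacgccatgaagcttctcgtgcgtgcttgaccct
The XPO5 stretch holds 2 GC boxes and 0 CCAAT boxes, and the TARBP2 stretch 1 GC box and 3 CCAAT boxes. Among the first-listed 250-base upstream windows of 27305 genes, 42.3% hold a GC box and 33.0% a CCAAT box. Of the 9 of the 10 genes with an entry in that table, 8 hold a GC box and 6 a CCAAT box. The GC content of these 9 windows ran from 58.8% to 80.0%, above the mean of 56.9% over all windows, and the shares were not matched for it. The NRF1 motif was found in the windows of 2, XPO5 and AGO1, and in 5.53% of all windows. In XPO5 it lies in the bases that were cut back. The search also covered an ETS motif (CCGGAAG), found in 1 of the 9 and 8.82% of all, and TATAAA, found in 0 of the 9 and 11.1% of all.

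The Argonautes are the proteins that hold the microRNA, and AGO2 is the member best known for cutting a matched target. AGO4, AGO1 and AGO3 lie one after another on the plus strand of chromosome 1 (35808172 to 35857890, 35869808 to 35930528 and 35930718 to 36072500). AGO3 (ENSG00000126070) was at 21.1, 24.3 and 25.5 CPM in control and 19.1, 20.1 and 20.1 CPM in knockdown libraries. The knockdown values were all lower, though control library A was near them. The group means were 23.6 ± 2.29 and 19.8 ± 0.58 CPM (SD, n = 3 each), which gave a log2 fold change of −0.26 (SE 0.09, interval −0.44 to −0.07, edgeR adjusted p = 0.0349). The call of AGO3 was lost when control B, control C, knockdown A or knockdown B was left out (with edgeR, adjusted p from 0.0826 to 0.134), and on the deposited FPKM values it stood at −0.069 to −0.10 without a call (limma adjusted p from 0.56 to 0.991).

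AGO1, the neighbour of AGO3, was at 18.3, 17.8 and 17.8 CPM in control and 18.2, 23.7 and 21.9 CPM in knockdown libraries. Knockdown library A lay within the control values and the other two lay above them. The log2 fold change was 0.24 (SE 0.10, interval 0.04 to 0.45, edgeR adjusted p = 0.0646, from 0.0128 to 1 over its 16 alternatives), and without knockdown library A it was 0.34 (edgeR adjusted p = 0.0128). AGO2 was at 83.4, 91.3 and 91.7 CPM in control and 77.3, 98.0 and 95.8 CPM in knockdown libraries, with a log2 fold change of 0.026 (SE 0.09, interval −0.18 to 0.23). AGO4 was at 15.7, 14.9 and 14.8 CPM in control and 14.4, 16.3 and 16.5 CPM in knockdown libraries, with a log2 fold change of 0.057 (SE 0.08, interval −0.12 to 0.24). In AGO2 and AGO4 alike, knockdown library A was the lowest of all 6 libraries and knockdown libraries B and C the highest.

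Knockdown library A was the lowest of its group for 8 of the 10 genes, all but TARBP2 and PRKRA, whereas 33.3% of all genes tested were lowest there. DICER1 was at 76.3% of the mean of the other 2 knockdown libraries in it, AGO1 at 79.9%, AGO2 at 79.8% and AGO4 at 87.7%. The median deviation of the 10 genes in this library was −0.11 on the log2 scale, against −0.0023 for all genes tested. The coefficient of variation among knockdown libraries was highest for DICER1 (15.0%), AGO1 (13.2%) and AGO2 (12.6%), compared with a median of 6.93% over the 7013 genes of the same range of CPM. It was 7.86% for DGCR8 and 7.41% for AGO4. Below that median were DROSHA (6.31%), XPO5 (3.94%), TARBP2 (4.48%), PRKRA (5.31%) and AGO3 (2.92%). In the control group DICER1, AGO1 and AGO2 varied by 6.71%, 1.47% and 5.23% (median 5.38%).

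Levels can be compared between the genes only per length. On the deposited FPKM scale (fragments per kilobase, scaled to library size), the order in the control group was DROSHA (40.9), XPO5 (38.2), PRKRA (28.2), TARBP2 (19.8), DGCR8 (10.9), AGO2 (7.83), DICER1 (4.95), AGO4 (4.70), AGO1 (1.79) and AGO3 (1.79). The values of DROSHA (39.6 to 42.0 FPKM) and XPO5 (35.9 to 42.2 FPKM) overlapped between control libraries, as did those of DICER1 and AGO4 and of AGO1 and AGO3. The order of the means was the same in the knockdown group. When counts were instead divided by the merged exons of each gene in GENCODE 29, XPO5 (18.0 CPM per kilobase) and PRKRA (10.5) came before DROSHA (8.04), AGO2 (5.61) came before DGCR8 (5.08) and TARBP2 (4.87), and DICER1 (3.02), AGO4 (2.08), AGO1 (1.29) and AGO3 (1.12) kept their order. DROSHA was therefore the highest on one scale and the third on the other, while AGO1 and AGO3 were the lowest on both.

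**Figure D3:**
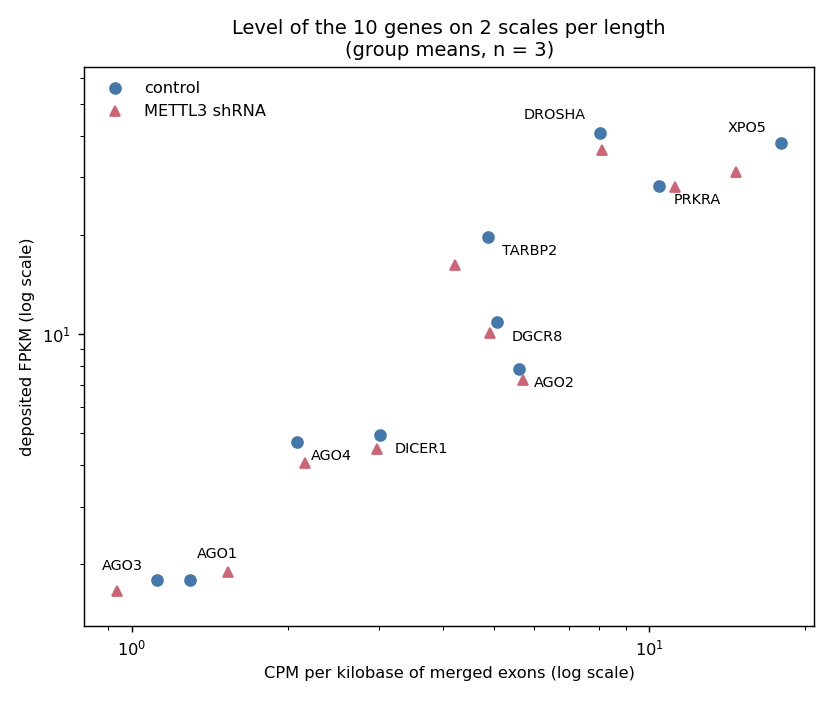
Group mean level of each of the 10 genes as deposited FPKM (vertical, log scale) against CPM per kilobase of merged exons (horizontal, log scale), for control (circles) and METTL3 shRNA (triangles). DROSHA is highest in FPKM (40.9 in control) but lies left of PRKRA and XPO5 on the other scale.

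The length behind each FPKM value can be read back by dividing counts by FPKM. For 452 genes with a single annotated transcript this implied length was 0.898 to 0.902 of the annotated length (median in each library), so it tracks transcript length on the same scale in every library. For DROSHA it was 1594, 1645 and 1534 bases in control and 1412, 1720 and 1948 bases in knockdown libraries, although its longest annotated transcript has 5305 bases. Its highest value was 1.38 times its lowest, a wider range than in 95.2% of 13889 genes. AGO4 ranged from 2443 to 4551 bases (1.86 times, wider than 99.4% of genes), AGO3 from 10980 to 15557 (1.42 times) and AGO1 from 8910 to 12185 (1.37 times). The lowest value of AGO3 was in control library A and that of AGO4 in control library C. Over all genes the median of this range was 1.07 times. For DROSHA, AGO1, AGO3 and AGO4 the length used for FPKM thus differed between libraries of 1 group by more than for most genes.

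Implied lengths did not overlap between the groups for DGCR8, XPO5 and TARBP2, all shorter in knockdown, which was so in this direction for 7.16% of all genes (8.61% longer, 15.8% in all). XPO5 was at 4253, 4257 and 4037 bases in control and 3852, 3865 and 3921 in knockdown libraries. The knockdown mean was 0.928 of the control mean, with an exact two-sided permutation p of 0.1, the smallest that 3 against 3 libraries can give. The same ratio was 0.973 for TARBP2 (1028 to 1056 against 1014 to 1023 bases) and 0.966 for DGCR8 (3490 to 3603 against 3393 to 3481 bases). METTL3, the targeted gene, was shorter as well, at 1591 to 1634 against 1409 to 1495 bases.

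**Figure D4:**
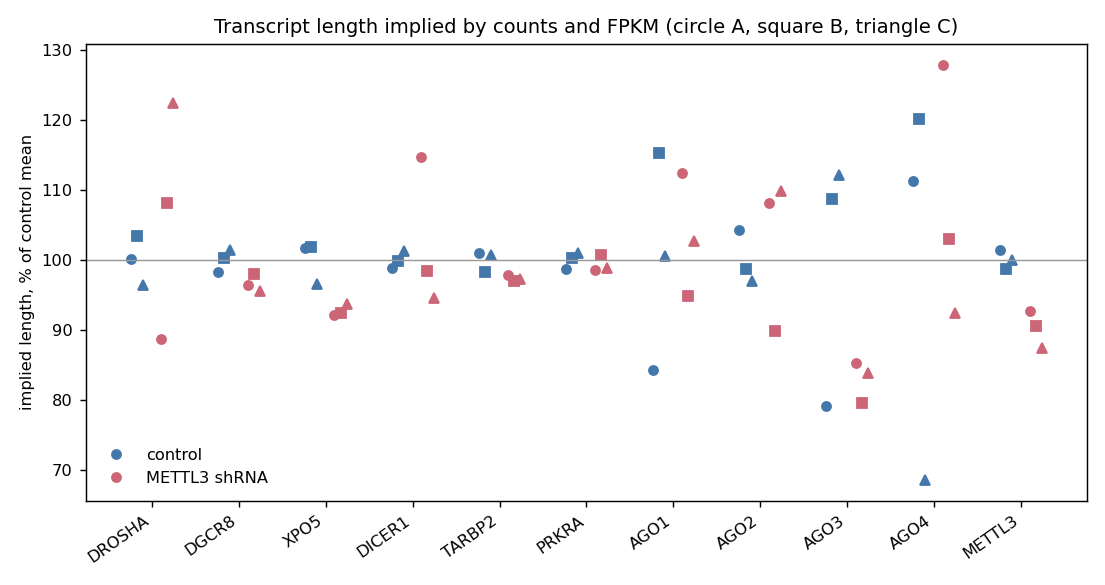
Transcript length implied by deposited counts and FPKM, as percent of the control mean of each gene, for control (blue) and METTL3 shRNA libraries (red), with circles, squares and triangles for libraries A, B and C. XPO5, TARBP2, DGCR8 and METTL3 show separate groups with knockdown lower, while AGO4, AGO1, AGO3 and DROSHA scatter widely between libraries of 1 group.

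Partners were compared within each library on the FPKM scale, in 7 values tested by the exact two-sided permutation test over libraries, which cannot go below p = 0.1 here. TARBP2 stood to PRKRA as 0.703 to 1 in the control group and 0.580 to 1 in the knockdown group (geometric means). The log2 ratio was −0.46, −0.52 and −0.55 in the control libraries and −0.83, −0.78 and −0.74 in knockdown libraries. The groups did not overlap, and the log2 ratio was lower by 0.28 in knockdown (exact permutation p = 0.1, adjusted over the 7 values 0.7). DROSHA stood to DGCR8 as 3.76 to 1 in control and 3.59 to 1 in knockdown (exact permutation p = 0.7), with overlapping groups. On CPM per kilobase of merged exons the same ratio was 1.58 and 1.65 (exact permutation p = 0.3), so that its size and its direction depend on the length used. DICER1 stood to DROSHA as 0.121 to 1 in control and 0.122 to 1 in knockdown (exact permutation p = 0.9). On CPM per kilobase it was 0.374 and 0.365 (exact permutation p = 0.8), again with another size and the other direction.

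Of the summed FPKM of the 4 Argonautes, AGO2 took 48.8% ± 4.86 in control and 48.7% ± 2.96 in knockdown libraries (SD, n = 3 each). AGO4 took 28.7% ± 5.59 and 27.2% ± 3.38, AGO1 11.3% ± 2.35 and 12.7% ± 0.47, and AGO3 11.3% ± 1.82 and 11.3% ± 1.53. These shares overlapped between the groups (exact permutation p from 0.4 to 1). On CPM per kilobase of merged exons, where each gene has 1 length in all libraries, the share of AGO3 was 11.1% ± 0.74 in control and 9.11% ± 0.75 in knockdown libraries (SD, n = 3 each), and that of AGO1 12.8% ± 0.60 and 14.8% ± 0.53. On that scale both sets of groups were separate (exact permutation p = 0.1 each, adjusted over the 7 values 0.233).

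The wider pathway was read from 5 lists of other genes. They were chosen with earlier results of these data known, and the shares of all genes set beside them were not matched for level. In the list of cofactors of primary microRNA processing, 7 of 16 genes fell and 0 rose, a share called of 43.8% beside 33.5% of all genes tested (16.9% lower), with a median log2 fold change of −0.08 beside −0.0030. These are proteins that bind the Microprocessor or its substrate and mostly serve splicing and other RNA steps as well. DDX5, an RNA helicase found with the Microprocessor, fell from 662 ± 15.1 to 486 ± 39.4 CPM (SD, n = 3 each; −0.45, SE 0.09). DDX17 of the same list, named after its values were seen, went the other way without passing. It was at 191 ± 6.67 CPM in control and 217 ± 16.9 CPM in knockdown libraries (0.18, SE 0.08, edgeR adjusted p = 0.0989). NCBP2, the small subunit of the nuclear cap-binding complex, fell from 61.1 ± 1.35 to 47.7 ± 1.00 CPM (−0.36, SE 0.07). SAFB2, a scaffold protein, fell from 110 ± 14.0 to 82.6 ± 4.03 CPM (−0.42, SE 0.09). HNRNPA2B1, an RNA-binding protein reported to bind m6A-marked primary microRNAs, fell from 256 ± 14.2 to 201 ± 8.98 CPM (−0.35, SE 0.08). DESeq2 and limma-voom likewise called 7 lower and 0 higher, 1 was higher at an unadjusted p under 0.05, and without knockdown library A 1 was called higher.

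Among 7 genes of export and import, 1 fell (14.3%, beside 16.9% of all genes tested) and 0 rose (median 0.016), and 6 did not pass. PHAX, the adaptor for export of spliceosomal RNA, was at 3976, 4163 and 4218 counts in control and 2776, 2978 and 3228 counts in knockdown libraries (−0.33, SE 0.07, edgeR adjusted p = 0.00447). DESeq2 and limma-voom gave the same counts, and 1 was higher at an unadjusted p under 0.05.

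Of 18 tested partners of the silencing complex, 5 fell (27.8%, beside 16.9% of all genes tested), 0 rose and 13 did not pass (median −0.12). TNRC6C, 1 of the 3 GW182 scaffold proteins that bind Argonautes, had 2371, 2136 and 2655 counts in control and 1103, 1532 and 1723 counts in knockdown libraries (−0.58, SE 0.12, edgeR adjusted p = 0.00338). The groups did not overlap, and it had the largest fall of the list. The other scaffold genes of this family stood at −0.11 (TNRC6A) and 0.07 (TNRC6B) without passing, named after their values were seen. The difference between these paralogues was not tested. The other named falls were those of the chaperones DNAJA2 (−0.36, SE 0.07), HSPA4 (−0.32, SE 0.07) and PTGES3 (−0.24, SE 0.08). Chaperones serve many proteins, and the part of each of these genes in loading Argonaute was not examined. Without the chaperones 1 of 9 tested partners fell. The number that fell was 3 without control library C or knockdown library B and 7 with library size scaling (25.2% of all genes lower), and 1 rose without knockdown library C. TRIM71 had too few counts to be tested. DESeq2 and limma-voom called 5 lower and 0 higher, and 1 was higher at an unadjusted p under 0.05.

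Of 13 tested genes that tail, trim or degrade precursors and microRNAs, 2 fell (15.4%, near the 16.9% of all genes tested), 0 rose and 11 did not pass (median −0.11). PNPT1, the mitochondrial polynucleotide phosphorylase, went from 43.1 ± 1.44 to 29.3 ± 1.94 CPM (SD, n = 3 each; −0.56, SE 0.08, edgeR adjusted p = 0.000245). TSNAX, a subunit of the nuclease C3PO, went from 64.1 ± 3.47 to 45.2 ± 4.60 CPM (−0.50, SE 0.09, edgeR adjusted p = 0.000936). LIN28A and LIN28B, blockers of let-7 maturation, were not tested, with LIN28B at 0 in all 6 libraries, which allows up to 3 counts or 0.032 CPM in a library by counting error alone. With library size scaling 4 of the list fell, and without control library A 1 rose. DESeq2 and limma-voom called 2 lower and 0 higher, and 1 was higher at an unadjusted p under 0.05.

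**Figure D5:**
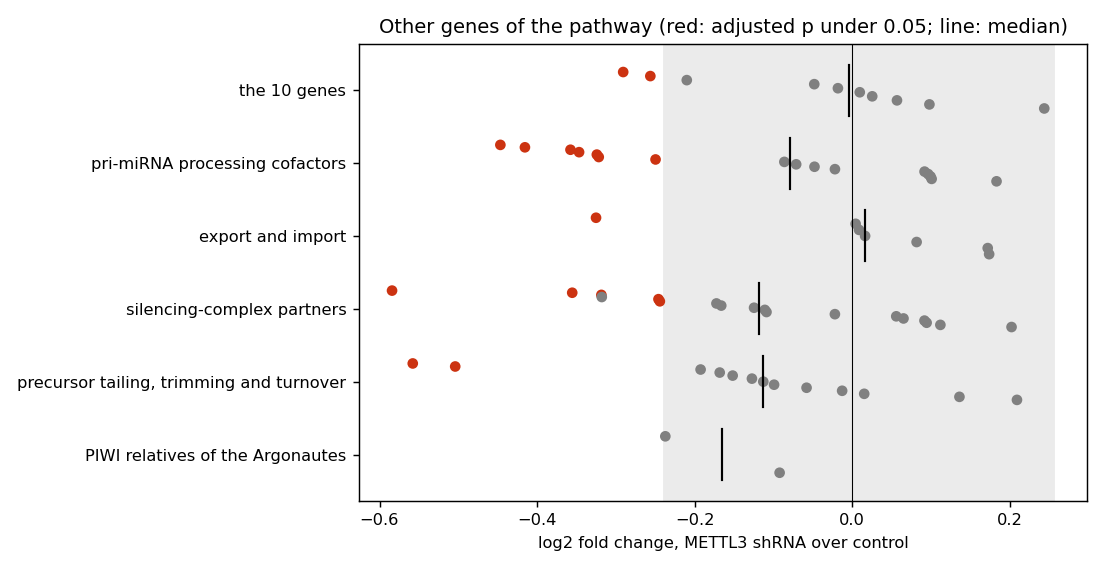
Log2 fold changes (METTL3 shRNA over control) of the 10 genes and of the tested members of 5 lists, 1 point per gene, red where the edgeR adjusted p was under 0.05, with the list median as a line and the 25th to 75th percentile of all tested genes in grey. All red points lie below 0, 7 of them among the cofactors, where the value of all tested genes called lower is 16.9%.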

How the data were processed

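RNA-seq values of 6 libraries of 786-O cells were analysed, 3 carrying a control shRNA and 3 carrying the METTL3 shRNA. The authors deposited whole-number counts and FPKM values for 61860 genes. GRCh38, STAR 2.7.10b and Salmon appear, without roles, in the submitters' processing notes. For the annotation, the strand setting and the lengths behind the FPKM, nothing was found (not given in the sources used here). Every value column was mapped.

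Counts were filtered with filterByExpr (18740 genes left), scaled by TMM and tested with edgeR 4.0.16 (R 4.3.3). The quasi-likelihood test was used, with p adjusted by Benjamini-Hochberg over all genes (threshold 0.05). SE came from the F statistic and 95% intervals from its degrees of freedom. The procedure was also run on simulated counts, and the share of small changes found there is not reported here. Within groups, counts of any pair of libraries differed beyond counting error (chi-square over its degrees of freedom, 16.5 to 62.8), so none was counted as 1 library deposited again. Whether libraries share a culture or RNA cannot be told from this. Members had 1359 or more counts in each library. Their coefficient of variation within a group ran from 1.47% (AGO1, control) to 15.0% (DICER1, knockdown). The part of counting error in this spread was not worked out. Implied length is counts divided by FPKM and by the library's total count. Gene models came from GENCODE 29, sequences from RefSeq.

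The members and lists were chosen with earlier results of these data known. Named are the 10 members, METTL3, up to 4 called genes per list with the smallest p, and exceptions marked as such. Alternatives were 2 other scalings, DESeq2 1.42.0, limma-voom (limma 3.58.1), 2 other count filters, limma on FPKM (log2 after adding 1, with and without a filter of 0.5 FPKM, or after adding 0.1 with it), a block, and leaving out each library. Levels per merged exon and the list without chaperones were added after seeing the data. Same-letter libraries did not deviate together in every pair (r −0.02, −0.05 and 0.17), so the letters were not taken as pairs.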

Additional observations from a re-analysis of the deposited data

How the results depend on the processing

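Of 433 alternative values for 30 results, 368 kept their side of the threshold and their direction or, for ratios, shares and counts, moved by less than the spread between libraries or less than 1.5 times, whatever their sign. The fall of METTL3 was called in all 16 of its alternatives and that of XPO5 in 15 of 16. In limma on log2(FPKM + 1) without a filter XPO5 was at −0.29 (adjusted p = 0.203), AGO3 at −0.069, and the calls were 0 of the 10 genes lower, 204 genes higher and 399 lower in all, 2 cofactors lower, 0 silencing partners and 0 turnover genes lower. AGO3 was also without a call at −0.069 and −0.10 in the filtered limma fits on log2(FPKM + 1) and log2(FPKM + 0.1). TARBP2 was called lower with library size scaling (−0.32), at 1 CPM in 3 libraries (−0.20), and in the filtered FPKM fits (−0.27 and −0.28), and AGO1 higher with no filter (0.25, 1 of the 10 genes higher).

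The fold changes that changed sign had no call in any fit. With library size scaling they were DROSHA at −0.10, PRKRA at −0.014, AGO2 at −0.085 and AGO4 at −0.052. On log2(FPKM + 1), filtered or not, they were DROSHA at −0.18, PRKRA at −0.0042, AGO2 at −0.11 and AGO4 at −0.16, and on log2(FPKM + 0.1) −0.18, −0.0043, −0.12 and −0.19. Library size scaling called 1985 genes higher in all and 4 turnover genes lower, and the filtered FPKM fits called 1588 and 1568 genes higher. The share of AGO3 among the Argonautes, higher by 0.09 percentage points in knockdown on FPKM, differed by −2.69 on CPM and by −1.95 on CPM per kilobase. Signs also turned for DROSHA to DGCR8 (log2 difference −0.069, 0.058 on both CPM scales), DICER1 to DROSHA (0.010, −0.036 on both), the share of AGO4 (−1.49, 0.30 on CPM, 0.36 per kilobase) and that of AGO2 (−0.055, 0.32 on CPM, −0.38 per kilobase). Leaving out each library turned these too (−0.19 to 0.030, −0.25 to 0.31, −3.74 to 1.64 and −1.49 to 2.75), and gave −0.81 to 1.01 for AGO3. Without chaperones 1 silencing partner fell. For these the cause was not tested.

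Leaving out each library in turn gave −0.039 to 0.043 for DROSHA, −0.096 to 0.096 for DICER1, −0.035 to 0.12 for AGO2, −0.33 to −0.20 for AGO3 and 0.16 to 0.34 for AGO1. It gave 0 to 1 of the 10 genes higher and 1 to 2 lower, and 2053 to 3265 genes higher and 1959 to 3324 lower in all. The lists had 0 to 1 cofactors higher, 0 to 1 silencing partners higher, 3 to 5 silencing partners lower and 0 to 1 turnover genes higher. With the column letter as a replicate block, 3421 genes were higher and 3564 lower in all. TARBP2 was called at −0.21 (adjusted p = 0.0496) and 1 turnover gene rose, and the letters share only a name.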

Other observations

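The PIWI relatives of the Argonautes, which act with piRNAs in the germline, were also read out. PIWIL1 and PIWIL3 were at 0 counts in all 6 libraries, which allows up to 3 counts in a library by counting error alone. PIWIL4 had 487, 552 and 594 counts in control and 449, 479 and 464 counts in knockdown libraries (log2 fold change −0.09, SE 0.11). PIWIL2 had 58, 103 and 158 counts in control and 70, 83 and 92 counts in knockdown libraries (−0.24, SE 0.28). Neither passed the test.

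DICER1-AS1, a transcript on the opposite strand that shares 80 exonic bases with DICER1, was looked at after its values were seen. It had 252, 344 and 281 counts in the control group (A, B, C) and 412, 384 and 384 in the knockdown group (log2 fold change 0.57, edgeR adjusted p = 0.00769). All 3 knockdown values lay above the control values, whereas DICER1 had overlapping groups. PJVK, which shares 132 exonic bases with PRKRA on the opposite strand, stood at 0.44 (edgeR adjusted p = 0.0851).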
